A study of Mus musculus with 10 samples.

Results

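Imprinted genes are expressed mainly from the allele inherited from 1 parent, because a differentially methylated control region on the chromosome is read differently on the maternal and the paternal copy. Many of them set growth before birth: paternally expressed members tend to promote growth and maternally expressed members tend to restrain it. Most are high in embryo and placenta, are turned down in adult tissue, and can be expressed again in tumors or persist in stromal, endocrine and progenitor cells.

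The imprinted growth genes described here are 10 of the 55359 genes of the table, chosen by symbol with earlier results of these data known. Of these, 5 are maternally expressed in most mouse tissues, the noncoding RNAs H19, Meg3, Rian and Mirg and the adaptor gene Grb10, and 5 are paternally expressed, Peg3, Peg10, Dlk1, Plagl1 and Mest. All 10 were found by their identifiers and all 10 passed the filter for testing. Their RNA was measured in 10 orthotopic pancreatic tumors, 5 of normoglycemic mice (CTRL) and 5 of mice made hyperglycemic with D30 water. By the source given in the labels and by the methods, all tumors came from luciferase-expressing KPC K8484 cells, a single pancreatic cancer line of the mouse whose alleles include Trp53 R172H/+ and Pdx1-Cre. The titles of the samples call the same tumors PDX, a term for grafts of patient tumors, and this difference between labels could not be settled here. The cells were injected into the pancreas of immunocompetent C57BL/6 mice (C57BL/6 J in the methods) at 10 weeks of age. The methods state equal numbers of males and females, which the Y-linked reads given below do not show for these tumors. CTRL mice drank regular water and D30 mice drank water with 30% dextrose for 14 days. The columns of the table carry N for CTRL and T for D30 with a number of their own, which could not be matched to single animals, so tumors are named N1, N2, N4, N5 and N6 and T1, T2, T4, T5 and T7.

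Values are normalized counts, that is, the reads of a gene over a factor for the size of its library, and 29192261 to 42122304 reads per tumor stood behind them. D30 tumors held a higher summed signal of ductal and tumor epithelium markers. The summed normalized count of the 8 markers was 224680 to 355280 under CTRL against 377560 to 500430 under D30. Of the 8 markers, 7 had log2 fold changes above 0 and 1 below. The test was passed by 0 in limma or edgeR and by 2 in DESeq2, while 7 had an unadjusted limma p under 0.05. The 10 fibroblast markers summed to 80408 to 142610 under CTRL against 32313 to 108200 under D30, with the lowest sum in T4. All 10 fibroblast markers had log2 fold changes below 0, of which 0 passed the test in limma or edgeR and 2 in DESeq2, and 7 had an unadjusted limma p under 0.05. Of all tested genes, 54.7% were below 0 in limma, 17.3% had an unadjusted p under 0.05 and 2.76% passed. DESeq2 called 1858 of 33001 genes. Acinar markers, which mark the exocrine pancreas, summed to 31717 in N2 and 69047 in N6 against 294 to 3502 in the other CTRL tumors, and to 149 to 6749 in D30 tumors. T4 also stood apart as the only tumor with Y-linked reads, 841 over 4 genes against 0 in each of the other 9. The equal numbers of males and females of the methods were thus not seen in these tumors, and the only one with Y-linked reads was a D30 tumor. In whole tumors, fewer cells of a type and less RNA per cell cannot be told apart.

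Several of the genes lie in clusters that share a control region, and the noncoding members carry small RNAs in their introns and exons. On chromosome 12 Meg3, Rian and Mirg follow each other on the + strand, Dlk1 lies before them, and Rtl1, which is read from the paternal copy, lies between Meg3 and Rian on the - strand. Mature miRNAs of RefSeq (GRCm38.p6) within these genes numbered 2 in H19, 3 in Meg3, 6 in Rian, 26 in Mirg and 2 in Mest. Another 11 lay opposite Rtl1, on the + strand. They were not measured, since the table counts genes, and they are shown because the genes whose RNA is reported below carry or face them. The first 3 below lie in H19 and Mest and the other 5 face Rtl1, with the seed (bases 2 to 8) in capitals.

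mmu-miR-675-5p: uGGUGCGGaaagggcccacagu
mmu-miR-675-3p: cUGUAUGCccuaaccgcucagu
mmu-miR-335-5p: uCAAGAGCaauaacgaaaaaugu
mmu-miR-431-5p: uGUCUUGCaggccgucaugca
mmu-miR-433-3p: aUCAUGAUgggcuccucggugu
mmu-miR-127-3p: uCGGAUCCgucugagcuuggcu
mmu-miR-434-3p: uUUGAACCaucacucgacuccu
mmu-miR-136-5p: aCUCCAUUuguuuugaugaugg

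No seed was shared among these 8. Among all mature miRNAs of these genes, 1 seed, GGUUGCC, was held by more than 1 of them, miR-453 and miR-496a-5p, both within Mirg.

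Promoter sequence from RefSeq (GRCm38.p6) is shown for Peg3 and Igf2r, which passed the test between groups, for Grb10, the other of the 10 whose groups did not overlap, and for Mest, whose start holds the hexamer TGCCGC. Rtl1 also passed the test, but RefSeq gave no window for it. That hexamer is the core that ZFP57, a zinc finger protein that keeps imprints methylated, recognises in its methylated form. Each sequence is the 250 bases before a start, 5′ to 3′ along the gene, with TGCCGC or its reverse complement GCGGCA in capitals.

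Peg3 upstream, chr7:6730420-6730669 (- strand): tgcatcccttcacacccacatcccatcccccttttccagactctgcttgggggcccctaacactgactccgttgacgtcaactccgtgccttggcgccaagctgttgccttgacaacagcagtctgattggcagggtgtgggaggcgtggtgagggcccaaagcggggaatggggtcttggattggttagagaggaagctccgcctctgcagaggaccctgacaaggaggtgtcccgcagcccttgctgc
Grb10 upstream, chr11:12037421-12037670 (- strand): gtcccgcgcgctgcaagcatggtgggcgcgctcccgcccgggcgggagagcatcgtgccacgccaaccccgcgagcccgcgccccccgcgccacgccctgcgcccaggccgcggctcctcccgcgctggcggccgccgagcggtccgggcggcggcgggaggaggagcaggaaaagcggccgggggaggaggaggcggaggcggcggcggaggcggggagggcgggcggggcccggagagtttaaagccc
Mest upstream, chr6:30737800-30738049 (+ strand): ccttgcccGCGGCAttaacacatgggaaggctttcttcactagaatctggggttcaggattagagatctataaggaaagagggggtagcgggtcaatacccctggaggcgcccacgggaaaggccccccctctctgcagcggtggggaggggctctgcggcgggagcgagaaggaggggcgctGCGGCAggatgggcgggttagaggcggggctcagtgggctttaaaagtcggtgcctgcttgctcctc
Igf2r upstream, chr17:12769707-12769956 (- strand): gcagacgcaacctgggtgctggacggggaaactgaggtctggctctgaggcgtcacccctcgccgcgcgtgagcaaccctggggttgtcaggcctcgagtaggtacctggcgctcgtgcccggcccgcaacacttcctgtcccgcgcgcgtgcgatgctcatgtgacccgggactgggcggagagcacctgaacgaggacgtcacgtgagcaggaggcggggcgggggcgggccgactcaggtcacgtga

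These windows differed in CG dinucleotides, the sites of DNA methylation. The Grb10 window shown held 40, more than 98.7% of the 32841 windows of all genes, while the window of a second Grb10 start held 8, more than 57.0%. The Igf2r window held 27, the Mest window 14 and the Peg3 window 8. RefSeq gave 12 windows for 8 of the 10 imprinted growth genes, none for H19 and Peg10. TGCCGC was found on either strand in 4 of the 12, in Meg3, Plagl1 and 2 overlapping windows of Mest, and in 8.68% of all windows. The motif GCCATNTT, which the factor YY1 is known to bind, was found on either strand in 0 of the 12 and in 3.91% of all windows. No methylation was measured, and a match describes only letters.

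Levels were compared between genes in RPKM (reads per kilobase of exon, scaled to equal library totals), computed from the recovered reads. In CTRL tumors H19 was highest at 2.71 ± 1.67 (SD, n = 5), followed by Grb10 at 1.86 ± 0.361, Meg3 at 1.49 ± 0.549, Mest at 1.35 ± 0.237 and Rian at 0.977 ± 0.360. Ranges of mean ± SD of neighbours among these 5 overlapped. The genes were measured in the same tumors, so this overlap does not test whether their levels differed. After a gap followed Mirg at 0.128 ± 0.0385, Plagl1 at 0.117 ± 0.0464, Dlk1 at 0.106 ± 0.0453 and Peg3 at 0.100 ± 0.0303, and Peg10 was lowest at 0.0508 ± 0.0301. The ranges of neighbours among these 5 overlapped as well. In D30 tumors Meg3 was highest at 1.71 ± 1.63, then H19 at 1.02 ± 0.846 and Grb10 at 0.958 ± 0.316. Mest at 0.668 ± 0.537 and Rian at 0.658 ± 0.213 were nearly level, Mirg at 0.0953 ± 0.0593 and Plagl1 at 0.0849 ± 0.0856 came after the same gap, and the 3 lowest were Dlk1 at 0.0672 ± 0.0699, Peg3 at 0.0268 ± 0.0132 and Peg10 at 0.0223 ± 0.0294. These levels rest on the exons of all transcripts joined, which is long for Meg3 (18089 bases) and Rian (18234 bases) and lowers their level. Reads over all tumors ranged from 84 for Peg10 to 10048 for Meg3, so the values of Peg10, Dlk1 and Plagl1 are the least precise. Mirg (281 reads) and Peg3 (296 reads) held little more than Plagl1.

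The comparison of D30 with CTRL asked how the transcriptome of these tumors differed between hyperglycemic and normoglycemic mice, and the imprinted growth genes were read from the fit over all 24560 tested genes. All 10 had a log2 fold change (D30 minus CTRL, on the log2(normalized count + 1) scale) below 0, with a median of -0.98, where 54.7% of all tested genes were below 0 and their median was -0.06. Only Peg3 passed an adjusted p under 0.05 in limma with Benjamini-Hochberg adjustment. That is 1 gene lower of 10, where 1.36% of all tested genes were called lower. Unadjusted limma p-values were under 0.05 for 4 of the 10, Peg3, Grb10, Mest and H19, where 9.54% of all tested genes had such a p and were lower. CTRL and D30 tumors did not overlap for 2 of the 10, Peg3 and Grb10, where 3.32% of all tested genes were lower without overlap. The 10 genes are not independent, since 4 of them share the chromosome 12 cluster and T4 was lowest for 7 of them (tied with T5 for Dlk1). Leaving T4 and T5 out, chosen after seeing the data, left 9 of 10 below 0 with a median of -0.52.

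**Figure D1:**
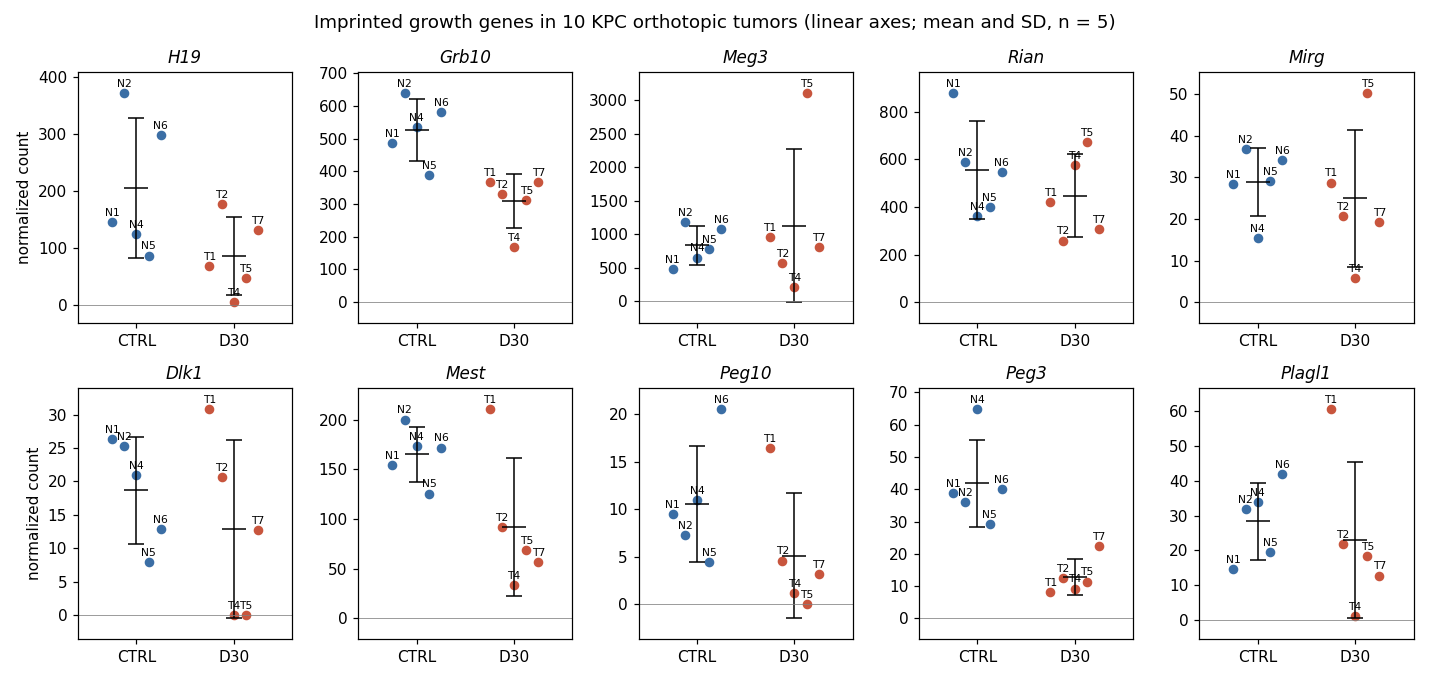
Normalized count (linear y axes, each including 0) of the 10 imprinted growth genes in 5 CTRL (blue) and 5 D30 (red) tumors, points labelled by tumor, with the mean as a horizontal mark and SD as a bar. Peg3 and Grb10 show no overlap between groups, T5 stands high for Meg3 at 3111, and T4 is lowest for H19, Grb10, Meg3, Mirg, Mest and Plagl1 and, with T5, at 0 for Dlk1.

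Peg3 encodes a large zinc finger protein of the paternal allele (chr7:6703892-6730431, - strand, GENCODE M21 on GRCm38) and is the only one of its cluster that could be tested. Its normalized counts were 38.9 in N1, 36.1 in N2, 64.9 in N4, 29.2 in N5 and 40.2 in N6, and 8.23 in T1, 12.6 in T2, 9.25 in T4, 11.4 in T5 and 22.4 in T7. Every D30 tumor lay below every CTRL tumor, and T7 was the nearest. The D30 values rest on few reads, 8 in T1, 11 in T2, 8 in T4, 10 in T5 and 21 in T7. The means were 41.9 ± 13.5 in CTRL and 12.8 ± 5.63 in D30 tumors (SD, n = 5), 3.28-fold higher in CTRL. On the log2 scale Peg3 fell by 1.67, a fold change of -1.67 with a standard error of 0.399 (limma with Benjamini-Hochberg adjustment, adjusted p = 0.0425). Peg3 also had the lowest spread of the 10 for its level, an SD of 0.47 on the log2 scale within groups, above only 7.45% of tested genes in the same decile of the mean. The call lay near the threshold: leaving out any 1 of the 5 CTRL tumors, T1 or T2 gave an adjusted p of 0.0762 to 0.113, while the log2 fold change stayed between -1.88 and -1.50 over all 10 tumors left out in turn. It was -1.53 without T4 and T5 (limma with Benjamini-Hochberg adjustment, adjusted p = 0.028). Without N2 and N6, the tumors with most acinar signal, it was -1.72 and 0 of the 10 genes were called (adjusted p of Peg3 = 0.321).
Usp29, which shares the Peg3 start region and runs away from it, had 2 reads over all tumors, and the other Peg3 neighbours were also under the filter. The log2 ratio of Usp29 to Peg3 therefore only restates Peg3.

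Grb10 encodes an adaptor that binds the insulin and IGF1 receptors and dampens their signal (chr11:11930508-12038683, - strand). Normalized counts were 486 in N1, 640 in N2, 535 in N4, 389 in N5 and 581 in N6, and 368 in T1, 331 in T2, 169 in T4, 312.5 in T5 and 366 in T7. The groups did not overlap, although N5 and T1 lay close together. The means were 526 ± 95.5 and 309 ± 82.0 (SD, n = 5; two-sided exact permutation test, p = 0.00794, as low as this test can go with 5 tumors a group). Across all tested genes the difference did not pass, with a log2 fold change of -0.80, a standard error of 0.255 and an adjusted p of 0.124 in limma with Benjamini-Hochberg adjustment. DESeq2 on the recovered reads gave -0.77 and an adjusted p of 0.0433. Without T4 and T5 the value was -0.55 (limma with Benjamini-Hochberg adjustment, adjusted p = 0.0827), and without N2 and N6 it was -0.64 (adjusted p = 0.650). Its receptor partners did not pass the test either: Insr had a log2 fold change of -0.24 and Igf1r of 0.08.

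H19 is a noncoding RNA of the maternal allele and the host of miR-675, printed above (chr7:142575529-142578143, - strand). Its normalized counts were 146 in N1, 373 in N2, 125 in N4, 86.8 in N5 and 299 in N6, and 67.9 in T1, 178 in T2, 4.63 in T4, 46.9 in T5 and 132 in T7. The groups overlapped, T4 was almost without H19, at 4 reads, and N2 and N6, which held most acinar signal, were highest. The part of the acinar signal in the H19 values was not tested. The means were 206 ± 123 and 85.8 ± 68.9 (SD, n = 5), for a log2 fold change of -1.74 with a standard error of 0.789 (limma with Benjamini-Hochberg adjustment, adjusted p = 0.279). It was -0.93 without T4, -0.60 without T4 and T5 and -1.14 without N2 and N6. Igf2, the growth factor gene that shares the H19 control region and is read from the other allele, had 3 reads in all over the 10 tumors, at most 1 per tumor. A ratio of H19 to Igf2 thus rests on H19 alone.

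Mest encodes a protein with a hydrolase fold and hosts miR-335 in an intron (chr6:30723547-30748465, + strand). Its normalized counts were 155 in N1, 200.2 in N2, 174 in N4, 126 in N5 and 171.98 in N6, and 211 in T1, 91.6 in T2, 33.5 in T4, 68.7 in T5 and 56.5 in T7. T1 was the highest of all tumors and the other 4 D30 tumors lay below every CTRL tumor. The means were 165 ± 27.5 and 92.2 ± 69.5 (SD, n = 5), and the log2 fold change was -1.09 with a standard error of 0.416 (limma with Benjamini-Hochberg adjustment, adjusted p = 0.196). Without T1 it was -1.46 (adjusted p = 0.0455), and without T4 and T5 it was -0.66 (adjusted p = 0.266). Mest shares 912 exon bases with Copg2 on the opposite strand, and whether reads were counted by strand is not stated in the sources used here. Copg2 itself had 2870 ± 161 and 2558 ± 103 normalized counts (SD, n = 5), and its adjusted p was 0.604 in limma with Benjamini-Hochberg adjustment. The log2 ratio of Copg2 to Mest was 4.13 ± 0.305 in CTRL and 5.05 ± 0.948 in D30 tumors (two-sided exact permutation test, p = 0.0714, 0.185 after Benjamini-Hochberg adjustment over 7 ratios).

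Of the imprinted growth genes, 4 lie in the chromosome 12 cluster, and none of the 4 passed the test (limma, edgeR, limma-voom or DESeq2). Meg3, a maternal noncoding RNA (chr12:109541001-109571726, + strand), had normalized counts of 486 in N1, 1183 in N2, 655 in N4, 778 in N5 and 1085 in N6, and of 960.3 in T1, 566 in T2, 212 in T4, 3111 in T5 and 805 in T7. Its highest and its lowest tumor were thus both D30 tumors. The means were 838 ± 292 and 1131 ± 1142 (SD, n = 5), while the log2 fold change was -0.03 with a standard error of 0.545 (limma with Benjamini-Hochberg adjustment, adjusted p = 0.987). The D30 mean was thus the higher while the log2 fold change was below 0, with T5 far above the other tumors, and edgeR on the recovered reads gave 0.45 (Benjamini-Hochberg adjusted p = 0.699). Meg3 varied more within groups than 97.9% of tested genes in the same decile of the mean.
Rian, which hosts a row of box C/D small nucleolar RNAs (chr12:109603940-109661716, + strand), had normalized counts of 362 to 878 under CTRL and of 259 to 672 under D30. Here T5 was the highest D30 tumor at 672, but T4 was the next at 574, unlike for Meg3. Between groups its log2 fold change was -0.33 with a standard error of 0.316 (limma with Benjamini-Hochberg adjustment, adjusted p = 0.642). It was -0.15 without N1, -0.16 without T2, -0.22 without T7, -0.50 without T5 and -0.71 without T4 and T5. Mirg, the host of the long miRNA row at the end of the cluster (chr12:109729764-109749460, + strand), had 15.5 to 36.9 in CTRL tumors and 28.8 in T1, 20.6 in T2, 5.78 in T4, 50.4 in T5 and 19.2 in T7. The D30 tumors stood in the same order as for Meg3, except that T2 and T7 were swapped. Its log2 fold change was -0.42 (limma with Benjamini-Hochberg adjustment, adjusted p = 0.728), and this value rested on single tumors, at -0.0077 without T4 and -0.74 without T5.
Dlk1, a membrane protein with EGF-like repeats that is paternally expressed in the same cluster (chr12:109452823-109463336, + strand), had 26.3 in N1, 25.3 in N2, 21.0 in N4, 7.97 in N5 and 12.8 in N6, and 30.8 in T1, 20.6 in T2, 0 in T4, 0 in T5 and 12.8 in T7. T4 and T5 held no read and the other 3 D30 tumors lay within or above the CTRL range. Dlk1 had a log2 fold change of -1.54 with a standard error of 0.964 (limma with Benjamini-Hochberg adjustment, adjusted p = 0.445). It was -0.88 without T4 and likewise without T5, and without both it turned to 0.22 (adjusted p = 0.816).

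Rtl1, a paternally expressed gene derived from a retrotransposon, was the gene of this cluster that did differ between groups. It is not one of the 10 and was read from the list of cluster neighbours. Its normalized counts were 71.5 in N1, 231 in N2, 33.8 in N4, 222 in N5 and 86.4 in N6, and 4.11 in T1, 8.02 in T2, 4.63 in T4, 9.16 in T5 and 14.9 in T7. Every D30 tumor lay below every CTRL tumor, and no D30 tumor stood apart. The means were 129 ± 91.3 and 8.17 ± 4.34 (SD, n = 5), 15.8-fold higher in CTRL, and the log2 fold change was -3.61 with a standard error of 0.561 (limma with Benjamini-Hochberg adjustment, adjusted p = 0.00519). It was -3.51 without T4 and T5 (adjusted p = 0.00259) and -3.30 without N2 and N6 (adjusted p = 0.0972). The library kit was directional, but whether reads were counted by strand is not stated in the sources used here, so reads of Rtl1 and of the maternal RNA that faces it, where miR-127 and miR-433 lie, cannot be told apart.
Ratios were taken between (normalized count + 1) values of 1 tumor, so the size factor enters through the added 1, which matters where reads are few, as for Dlk1 in T4 and T5 and for Rtl1 in D30 tumors. The log2 ratio of Rtl1 to Meg3, chosen after its values were seen, was -2.95 ± 0.980 in CTRL and -6.54 ± 1.30 in D30 tumors (SD, n = 5), with no overlap (two-sided exact permutation test, p = 0.00794). For Rian to Meg3 it was -0.59 ± 0.810 and -0.90 ± 1.37 (exact permutation test, p = 0.635), for Mirg to Meg3 -4.79 ± 0.470 and -5.19 ± 0.463 (exact permutation test, p = 0.190), and for Dlk1 to Meg3 -5.46 ± 0.958 and -6.97 ± 2.85 (exact permutation test, p = 0.325). With no Dlk1 read in T4 and T5, the last ratio is set there by the added 1, and its difference between groups was -1.51 with all tumors and -0.35 without T5. None of these 3 passed Benjamini-Hochberg adjustment over the 7 ratios fixed by name. The smallest adjusted p of the 7 was 0.0556 (exact permutation test), for Usp29 to Peg3, whose groups did not overlap. With 5 tumors a group, 1 ratio alone at the smallest exact p cannot go below this over 7 ratios. The lack of a call therefore shows little. Dio3, a thyroid hormone deiodinase gene at the end of the cluster, was highest of all in T4 at 198, and its ratio to Meg3, also chosen after its values were seen, was -3.34 ± 1.24 and -4.39 ± 2.66 (exact permutation test, p = 0.413), or lower by a difference of -2.13 without T4 (p = 0.0317). In the whole cluster of 7 genes with Begain, all 7 were below 0 with a median log2 fold change of -1.06, and Rtl1 alone was called. Of all tested genes 54.7% were below 0, with a median of -0.06, and 1.36% were called lower. Dlk1, Meg3, Rian and Mirg are already counted among the 10, with Meg3 near 0, so this count is not separate evidence.

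**Figure D2:**
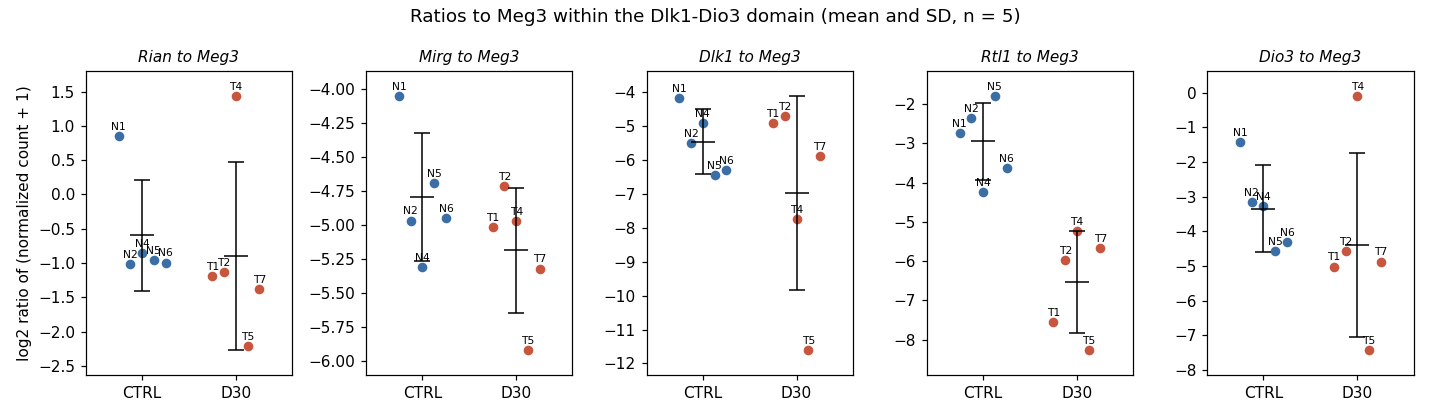
Log2 ratio of (normalized count + 1) to Meg3 (y axes, each with its own range) for Rian, Mirg, Dlk1, Rtl1 and Dio3 in CTRL (blue) and D30 (red) tumors, with the mean as a horizontal mark and SD as a bar (n = 5). Rtl1 to Meg3 runs from -4.24 to -1.80 in CTRL and from -8.26 to -5.24 in D30 tumors without overlap, while the other 4 ratios overlap.

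Plagl1 and Peg10, on chromosomes 10 and 6, did not pass the test. Plagl1 encodes a zinc finger transcription factor that regulates other imprinted genes (chr10:13060504-13131694, + strand). It had normalized counts of 14.7 in N1, 31.8 in N2, 33.8 in N4, 19.5 in N5 and 41.9 in N6, and of 60.7 in T1, 21.8 in T2, 1.16 in T4, 18.3 in T5 and 12.8 in T7. The highest and the lowest tumor were again both D30 tumors, and T4 held 1 read. The log2 fold change was -0.86 with a standard error of 0.732 (limma with Benjamini-Hochberg adjustment, adjusted p = 0.595). It was -0.15 without T4, -1.36 without T1 and -0.04 without T4 and T5, and edgeR on the recovered reads gave -0.29.
Peg10, a retrotransposon-derived gene needed in placenta (chr6:4747306-4760517, + strand), had 9.47 in N1, 7.23 in N2, 10.96 in N4, 4.43 in N5 and 20.5 in N6, and 16.5 in T1, 4.58 in T2, 1.16 in T4, 0 in T5 and 3.20 in T7. T4, T5 and T7 held 3 reads or fewer, so these values rest on few counts. The log2 fold change was -1.42 with a standard error of 0.712 (limma with Benjamini-Hochberg adjustment, adjusted p = 0.330). It was -0.93 without T5, -0.48 without T4 and T5, and -0.74 with a pseudocount of 5 in place of 1. Its neighbour Sgce, a sarcoglycan gene that shares the start region, had 131 ± 56.8 and 92.9 ± 31.3 normalized counts (SD, n = 5), and the log2 ratio of Sgce to Peg10 did not separate the groups (two-sided exact permutation test, p = 0.349). All 8 genes of the Peg10 cluster tested by limma, Peg10 included, were below 0, where 54.7% of all tested genes were. Of the cluster, 0 were called by limma, by edgeR (7 tested) or by DESeq2 (9 tested). In limma 1 had an unadjusted p under 0.05, where 17.3% of all tested genes had one.

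**Figure D3:**
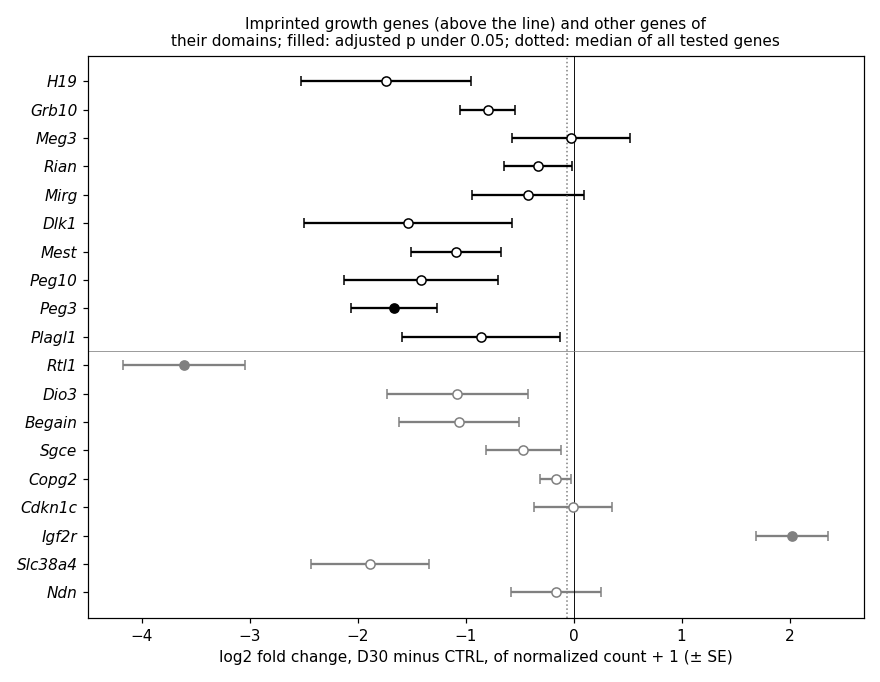
Log2 fold change of (normalized count + 1), D30 minus CTRL (x axis), with its standard error as a bar, for the 10 imprinted growth genes (black, above the line) and 9 other imprinted genes or cluster neighbours (grey). Filled points passed an adjusted p under 0.05 (Peg3 at -1.67, Rtl1 at -3.61 and Igf2r at 2.02), and the dotted line is the median of all tested genes at -0.06.

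The other imprinted genes and cluster neighbours, without the 10, numbered 57 tested of 71 listed. Of these 19 were above 0 and 38 below with a median log2 fold change of -0.15, and 1 was called higher and 1 lower, where 2.76% of all tested genes were called in either direction and 1.4% higher. The groups did not overlap for 4 of the 57, Igf2r and Cd81 higher and Rtl1 and Phactr2 lower (Cd81 was named after its values were seen), where 6.19% of all tested genes did not overlap in either direction. The gene called higher was Igf2r, the maternally expressed receptor that takes up and degrades IGF2. Its normalized counts were 352 in N1, 368 in N2, 366 in N4, 207 in N5 and 406 in N6, and 2367 in T1, 1620 in T2, 568 in T4, 1519 in T5 and 1350 in T7. Every D30 tumor lay above every CTRL tumor, and T4 was the nearest. The means were 340 ± 76.8 and 1485 ± 643.5 (SD, n = 5), 4.37-fold higher in D30 tumors, and the log2 fold change was 2.02 with a standard error of 0.337 (limma with Benjamini-Hochberg adjustment, adjusted p = 0.00717). It was 2.38 without T4 and T5 (adjusted p = 8.63e-05) and 2.17 without N2 and N6 (adjusted p = 0.0732). Airn, the paternal antisense RNA that starts within Igf2r, had 163 ± 36.1 and 160.3 ± 50.2 normalized counts (SD, n = 5) and a log2 fold change of -0.06 (limma with Benjamini-Hochberg adjustment, adjusted p = 0.947).
The genes with the next smallest p did not pass in the main limma fit. With all tumors, limma did call Ins2 with a pseudocount of 0.5 and with library-size scaling. Among these genes, DESeq2 called Ins2, Kcnq1 and Slc38a4, and edgeR called Kcnq1. With single tumors left out, limma called Ins2, Kcnq1 and Mkrn3 without T4, Slc38a4 without T2 and Ins2 without N5. Ins2, an insulin gene next to H19 on chromosome 7, was at 504 in N2 and 549 in N6, at 2.66 to 48.4 in the other CTRL tumors, at 11.6 in T4 and at 0 in the other 4 D30 tumors (limma with Benjamini-Hochberg adjustment, adjusted p = 0.0514). It is also a marker of islets, the endocrine pancreas. The islet markers summed to 67.3 to 1558 in CTRL and 24.7 to 131 in D30 tumors. All 12 tested by limma were below 0, and Ins1, Gcg, Ppy and Iapp were called lower. Of all tested genes 54.7% were below 0 and 1.36% were called lower. Only 3 islet markers entered the edgeR test, with 0 called and 0 at an unadjusted p under 0.05, so edgeR says nothing of the rest. DESeq2 tested 14 and called 5, where it called 1858 of 33001 genes. The part of islet and acinar cells in the values of Ins2 was not tested. Kcnq1, a potassium channel gene of the neighbouring cluster, had a log2 fold change of 1.11 (adjusted p = 0.0836), and Slc38a4, an amino acid transporter gene, of -1.89 (adjusted p = 0.0906). For Mkrn3 it was -2.13 (adjusted p = 0.111), with 5 tumors at 3 reads or fewer.

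Genes that act on imprints or with the imprinted growth genes were read from lists of their own. Of 15 tested genes of the imprinted network of Plagl1, 14 were below 0 and 1 above with a median log2 fold change of -0.47, and Peg3 and Igf2r were called, where 54.7% of all tested genes were below 0 and 2.76% were called. This list holds 7 of the 10 genes, so it is not separate evidence. Of the 17 factors that keep or read imprints, 0 were called by limma, edgeR or DESeq2 and 0 had an unadjusted p under 0.05 in any of them. In limma 13 of the 17 were below 0 and 4 above, with a median of -0.25. Of all tested genes limma called 2.76%, 17.3% had an unadjusted p under 0.05, and the median was -0.06. With that share called, 0 calls among 17 shows little. Of these factors, edgeR tested only 14. Zfp57, which holds imprints through the hexamer marked above, had 6074 ± 868 and 4898 ± 1460 normalized counts (SD, n = 5), with its lowest value of 2656 in T4. Of 8 tested receptors and RNA-binding partners, 1, Igf2r, was called, and Igf2bp2, an RNA-binding protein named for its Igf2 target, had a log2 fold change of 0.32. The cluster of H19, Igf2 and Kcnq1ot1 held 15 tested genes, 9 above 0 and 6 below with a median of 0.40, and 0 were called by limma, against 1 by edgeR and 2 by DESeq2 (Kcnq1 in both, and Ins2). In limma 5 of the 15 had an unadjusted p under 0.05, where 17.3% of all tested genes had one.

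The co-variation of the 10 genes over tumors was read after each group's mean was taken away, so that a difference between groups could not appear as co-variation. Of the 45 pairs, 33 had a positive and 12 a negative Pearson correlation, with a median r of 0.421. No such counts were taken for pairs of other genes, and T4 was lowest for 22.3% and highest for 24.3% of all tested genes, with ties given to the first tumor in column order. No pair passed Benjamini-Hochberg adjustment over the 45 pairs, where the smallest adjusted p was 0.138 (exact permutation within groups), and 6 had an unadjusted p under 0.05. H19 and Grb10 were the closest pair, with r = 0.916 (exact permutation test within groups, p = 0.00306) and Spearman's rho = 0.782 (exact permutation test, p = 0.0131) over 10 tumors. Without T2 and T4, the 2 tumors farthest from the median of H19, r was 0.872, and without T4 alone it was 0.711. For each r without 2 tumors, here and below, the group means of all 10 tumors were kept. A shift of the tumors left in a group can therefore enter that r. For r without T4 alone the group means were taken anew. The relation appeared within both groups, with r = 0.907 over the 5 CTRL tumors and 0.926 over the 5 D30 tumors, given as a description. In CTRL tumors, N2 and N6 were highest for both genes, and these were also the tumors with most acinar signal, whose part in the relation was not tested.
Meg3 and Mirg followed with r = 0.905 (exact permutation test within groups, p = 0.0117, 0.145 after Benjamini-Hochberg adjustment) and rho = 0.818 (exact permutation test, p = 0.0112). Without T4 and T5 r was 0.557, so the relation rests in part on these tumors. Meg3 and Rian, which lie side by side, had r = 0.122 (exact permutation test within groups, p = 0.800) and rho = 0.127 (exact permutation test, p = 0.751). Plagl1 and Mest had r = 0.906 (exact permutation test within groups, p = 0.0163) and rho = 0.709 (exact permutation test, p = 0.0417), and 0.592 without T1 and T4. Plagl1 and Grb10 had r = 0.848 (exact permutation test within groups, p = 0.0166) and rho = 0.697 (exact permutation test, p = 0.04), and 0.560 without T1 and T4. The other 2 of the 6 pairs were Dlk1 with Grb10 at r = 0.685 and Peg10 with Dlk1 at r = 0.805 (exact permutation tests within groups, p = 0.0169 and p = 0.0193), with rho of 0.650 and 0.723 (p = 0.0557 and p = 0.0535). Without the 2 farthest tumors r was 0.681 and 0.577, with the group means kept, so these do not show how little the pairs depend on those tumors.

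**Figure D4:**
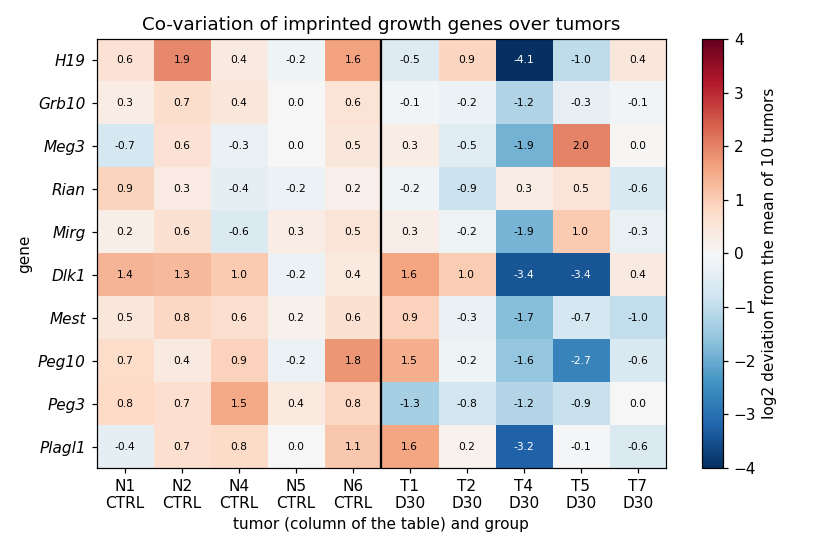
Deviation of log2(normalized count + 1) from the mean of the 10 tumors (color and printed value) for each imprinted growth gene (rows) and tumor (columns, CTRL left and D30 right of the line). T4 is at -4.1 for H19, -3.4 for Dlk1 and -3.2 for Plagl1 but at 0.3 for Rian, and T5 is at 2.0 for Meg3 and -3.4 for Dlk1.

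The lowest values gathered in T4. It was the lowest tumor for 7 of the 10 genes, tied with T5 at 0 for Dlk1, and for 22.3% of all tested genes. Ties were given to the first tumor in column order. The median deviation of T4 from the D30 mean over the 10 was -1.41 on the log2 scale. It also had the lowest fibroblast sum of all tumors, 32313, the highest macrophage sum, 63161, and the only Y-linked reads, and the part of these in the values was not tested. T5 was highest for Meg3 and Mirg and lowest for Peg10, and it had the fewest genes with a read, 20482. T1 was highest for Dlk1, Plagl1 and Mest. Within groups the SD on the log2 scale was 1.80 for Dlk1, 1.52 for H19, 1.32 for Plagl1, 1.21 for Peg10 and 1.06 for Meg3, and 0.38 for Grb10 and 0.47 for Peg3. Against genes in the same decile of the mean, Meg3, H19 and Dlk1 lay at the 97.9, 97.1 and 95.0 percentiles and Peg3 at the 7.45 percentile. In D30 tumors the SD of Grb10 was 0.47 with T4 and 0.12 without it, and that of H19 was 1.97 and 0.87.

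The genes whose pattern over the 10 tumors was most like each imprinted growth gene were named by Pearson's r among the 17360 genes that averaged 10 or more normalized counts, as a description. For Peg3 they were Crabp1, a retinoic acid-binding protein gene, at 0.957, Rcan2, 3100003L05Rik, Ccn5 and Gm14139. For Grb10 they were Loxl1, a collagen and elastin cross-linking enzyme gene, at 0.975, Plekhg4, St3gal3, Gm6781 and Ccm2l. For H19 they were Klhl33 at 0.966, Adam33, Pced1b, Igsf10 and Cntfr, and for Meg3 Sorcs2 at 0.965, Emilin1, Amotl1, Nectin1 and Evc. For Mest they were Gm6158 at 0.951, Hivep3, Fam234b, Col1a2, a collagen gene and fibroblast marker, at 0.940, and Gpc6. For Plagl1 they were Cdca7l at 0.979, Gata2, Mcph1, Pbx3 and Kntc1, and for Peg10 Kif20b, a mitotic kinesin gene, at 0.979, Hist2h2be, Dna2, Kif14 and Mms22l. For Dlk1 they were Zdhhc23 at 0.974, L1cam, Pqlc2, Gm37986 and Tada2a. For Mirg they were Ccdc78 at 0.967, 4933411K16Rik, Rbsn, Oplah and Amigo3, and for Rian Zfp354c at 0.932, Ints6l, Ubtd2, Bcl2l15 and Rdx. Genes with an r over 0.9 numbered from 8 for Rian to 163 for Plagl1, and none of the 10 was among another's 5. The points share the group difference and the size factor of each tumor.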

How the data were processed

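RNA was sequenced from 10 KPC orthotopic tumors, 5 CTRL and 5 D30, in directional libraries read in pairs. The submitters' processing notes name CASAVA, FastQC, Trim Galore, STAR 2.7.0e, DESeq2 and GRCm39, the methods name hg38 and the study's software list RSEM; the counting settings are not given in the sources used here. The authors deposited a normalized signal per gene and tumor, counts divided by a size factor. All values were whole reads (100% within 0.02) once the factor was undone, from 29192261 to 42122304 reads per tumor.

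Identifiers were matched without version to GENCODE M21 (GRCm38; 52083 of 55359, 94.1%), whose positions are printed. limma 3.58.1 (R 4.3.3) with a mean-variance trend tested log2(normalized count + 1) for the 24560 genes with a mean of at least 1, with Benjamini-Hochberg adjustment and a call at an adjusted p under 0.05. Folds on this scale understate low genes. edgeR 4.0.16, DESeq2 1.42.0 and limma-voom served as alternatives on the recovered reads. Ratios and co-variation were tested by two-sided exact permutation. The labels do not say more of the tumors than that they are replicates, so p-values measure the spread between these samples. Scripts were tested on simulated data.

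The genes and all lists were chosen with earlier results of these data known. Named were the 10 genes, other listed genes that were called, that stood in a ratio or that had the 5 smallest p, the 5 genes most like each by r, and markers that moved with a result. Of the other marker lists, limma called 0 of 8 pericyte and smooth muscle, 8 adipocyte, 4 skeletal muscle, 5 mesothelium, 6 neuron and glia, 8 lymphocyte, 8 proliferation, 11 acinar and 4 Y-linked genes tested, and 1 lower each of 8 endothelium (Cdh5) and 8 macrophage genes (Csf1r). Of all tested genes, limma called 1.36% lower and 1.4% higher. Igf2as had no match. A further allele of the KPC line is not reported here.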

Additional observations from a re-analysis of the deposited data

Results flagged for a closer look

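Among 38 groups of 5 tumors checked for a value far from the others, 3 were set apart by Dixon's 95% criterion, and chance alone sets apart about 1 in 20 groups. Grb10 in T4 was the lowest D30 value at 169 normalized counts, where the next was 312.5. Igf2r in N5 was the lowest CTRL value at 207, where the next was 352. The log2 ratio of Rian to Meg3 was 0.85 in N1, the highest CTRL value, where the next was -0.85.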

How the results depend on the processing

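Of the 10 imprinted growth genes 8 to 10 had a log2 fold change below 0 under every alternative (of 9 with edgeR, limma-voom and the filter at a mean of 10, which left out Peg10), with a median of -1.41 to -0.52. The number called, 1 as reported, was 0 with no filter, 2 with DESeq2 and 0 without N2 and N6, and 0 to 1 with each tumor left out in turn. It was 1 under the other pseudocounts, scalings, filter and tests, and that gene was Peg3, except that it was Mest without T1. Of the other imprinted genes, 2 were called as reported, 7 with DESeq2, 9 without T4 and T5, 0 without N2 and N6, and 2 to 7 with each tumor left out, with the 7 without T4 and 4 without T5. With a pseudocount of 0.5 or library-size scaling 3 were called (Ins2 added), and with edgeR 3 (Kcnq1 added). Over all genes, 678 were called as reported, 1858 with DESeq2, 2418 without T4 and T5, 66 without N2 and N6 and 279 to 1573 with each tumor left out, with the 279 without N2 and the 1573 without T4. The cause of these moves was not tested. Settings that leave out 2 tumors were chosen after seeing the data. Library-size scaling moved the median of all genes from -0.06 to -0.27 and that of the 10 genes to -1.18, and edgeR moved the former to 0.04.

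The log2 fold change of Meg3 turned from -0.03 to 0.45 with edgeR, 0.43 with DESeq2, 0.31 without N2 and N6, and 0.12 without N2, 0.08 without N6, 0.09 without T2 and 0.44 without T4, with a range of -0.53 to 0.44 over each tumor left out. That of Dlk1 turned to 0.22 without T4 and T5, and the difference in log2 ratio of Rian to Meg3 turned from -0.30 to 0.058 without N1 and 0.026 without T5, with a range of -0.89 to 0.058. Of the 7 ratios, 0 passed as reported and 2 without T1 (0 to 2 with each tumor left out), Usp29 to Peg3 and Copg2 to Mest. A single ratio with full separation cannot pass over 7, so these counts depend on how many reach the smallest exact p together. No pair of genes passed the adjustment in any setting tried for co-variation. No paired analysis was possible because the labelled replicate numbers could not be matched to columns of the table. The columns of both groups share 4 numbers of their own, but no source says that these pair tumors, which came from different mice, and they were not used as a block. Depth limits Peg10, Dlk1 and Plagl1, with 84, 167 and 273 reads over all tumors, and also Mirg and Peg3, with 281 and 296.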
